A study of Homo sapiens with 16 samples.

Results

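The genes described here encode the subunits, activators, inhibitor and dedicated assembly factors of the human proteasome. They were taken as every protein-coding row of the deposited table whose symbol starts with PSM, a letter from A to G and a digit, which gave 50 of 20232 protein-coding rows and of 56969 rows in all. Among these, 48 were proteasome genes proper. The other two matched by name only: PSMC3IP encodes a recombination factor, and a second PSMA2 row (ENSG00000256646) shares same-strand exons with PSMA2 and C7orf25 in GENCODE v29.

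RNA came from HepG2, an established human liver cancer cell line, transfected either with siRNA against HCF-1, the chromatin-bound transcription cofactor encoded by HCFC1, or with control siRNA. Each group had 8 libraries, biological replicates per the labels. All cultures were reverse transfected with the siPORT NeoFX reagent, transfected again 2 days later and lysed for RNA 2 days after that. No source used here gives the siRNA sequences or how many siRNAs were used. The series concerns the insulin receptor at promoters and its partner HCF-1, and the comparison asks which transcripts change when HCF-1 is reduced.

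The proteasome is the barrel-shaped protease that degrades ubiquitin-tagged proteins in the cytosol and nucleus. Its 20S core is built of outer rings of alpha subunits, which gate the entrance, and inner rings of beta subunits, some of which cut peptide bonds. The 19S regulatory particle caps the core: its base holds a ring of ATPases that unfold the substrate, and its lid removes ubiquitin. In cells exposed to interferon, immune beta subunits take the place of the catalytic constitutive ones and alter the peptides offered to T cells. Other caps (PA28 and PA200) open the core without ATP, and chaperones that leave the finished particle help to assemble it.

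Most proteasome genes were modestly lower after HCF-1 siRNA. Of 48 rows with a mean of at least 10 normalized counts, 29 fell and 1, PSME4, rose at a limma adjusted p under 0.05, and 18 did not pass. Among all 16081 genes tested, 18.3% fell and 18.2% rose, so the 60.4% of proteasome rows that fell stands beside a background of 18.3%. That background includes genes of low counts. With the filter at a mean of 50, 2808 of 12729 genes fell, 30 proteasome rows among them. How these shares depend on expression level was not tested. In 18 of the 48 rows every HCF-1 siRNA library lay below every control library, against 5.23% of all genes. No row had every HCF-1 siRNA library above every control library, against 4.59% of all genes. The median log2 fold change over the 48 rows was -0.20, beside 0.01 over all genes tested. No fall reached 1.5-fold, and the 29 genes that fell had 73.0% to 90.1% of the control mean. The remaining rows were PSMA8, a testis form of an alpha subunit, listed at 0 in every library, and PSMB11, the thymus beta subunit, with at most 1.75 normalized counts in HCF-1 siRNA libraries and at most 0.90 in control libraries. Neither was tested.

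Values are the deposited normalized counts, and fold changes are log2 differences of normalized count + 1 for HCF-1 siRNA over control siRNA. Their standard errors (SE) come from 8 libraries against 8. The +1 understates the change of low genes. Adjusted p-values are from limma with Benjamini-Hochberg adjustment over all genes tested. In bulk RNA, fewer cells of a type and less RNA per cell cannot be told apart, and a lower value is a smaller share of a library. HCFC1 (ENSG00000172534), the targeted gene, had 3112, 3654 and 4171 normalized counts in the lowest, median and highest HCF-1 siRNA library, against 4851, 5548 and 6878 in control libraries. It was at 65.4% of the control mean with no overlap (log2 fold change -0.61 ± 0.07, adjusted p = 4.52e-06).

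Recovered reads per library were 25098840 to 43186890 with HCF-1 siRNA and 21030830 to 32820459 with control siRNA (two-sided exact permutation p = 0.0375, where 1.55e-04 is the smallest this design allows). With all libraries thinned to the smallest one, 31 rows fell and 1 rose, and of all genes 2861 fell, against 2947 without thinning. Summed normalized counts of 8 hepatocyte markers were also higher with HCF-1 siRNA, 861100 to 1029270, than with control siRNA, 722942 to 788642. Of the 8, ALB, AFP, TF and TTR had groups that did not overlap, while APOA1, APOB, SERPINA1 and HNF4A overlapped. The part of these markers in the proteasome values was not tested. All 8 were detected, while the blood markers PTPRC, CD3E and HBB were below 10 in every library. No endothelial or mesenchymal marker found in the data was below 10 in every library. Yet COL3A1 had a median of 3.47 with HCF-1 siRNA and 5.48 with control siRNA. DCN had 0.845 with HCF-1 siRNA and 1.36 with control siRNA. The mesenchymal markers COL1A1 and PDGFRB had at least 341.2 and 336.9 in every library. Endothelial sums were 94.6 to 157.6 with HCF-1 siRNA and 82.0 to 159.9 with control siRNA. Mesenchymal sums were 864.9 to 1482 with HCF-1 siRNA and 916.5 to 1460 with control siRNA. The blood marker LYZ gave nearly the whole blood marker sum, 27717 to 33967 with HCF-1 siRNA and 26599 to 31475 with control siRNA.

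HCF-1 has no DNA-binding domain of its own and is known to be brought to promoters by partners that include ZNF143, THAP11 and ETS-family factors. RefSeq promoter windows (GRCh38.p14, 250 bases before to 50 after a gene start) matched 43 of the 50 rows by symbol. Without the rows matched by name only, they numbered 51 windows of 42 genes. The box read by ZNF143 and THAP11, searched as ACTACA and TCCC with any 2 bases between them, was found on either strand in 5 of these 51 windows (9.80%) and in 616 of 35116 RefSeq windows (1.75%). The 5 sites are printed because partners of HCF-1 are known to read this box; a match of letters shows no binding. The box is in capitals, each line reads 5′ to 3′ on the strand that carries it, and coordinates are GRCh38.p14.
PSMC3, chr11:47426608-47426667, minus strand: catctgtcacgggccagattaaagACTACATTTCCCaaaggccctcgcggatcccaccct
PSMC4, chr19:39971079-39971138, plus strand: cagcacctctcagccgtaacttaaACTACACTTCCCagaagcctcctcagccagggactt
PSMD10, chrX:108091722-108091781, plus strand: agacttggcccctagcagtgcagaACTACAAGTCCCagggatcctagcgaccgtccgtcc
PSMD11, chr17:32444370-32444429, plus strand: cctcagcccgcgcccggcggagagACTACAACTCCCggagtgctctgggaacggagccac
PSMD2, chr3:184299020-184299079, minus strand: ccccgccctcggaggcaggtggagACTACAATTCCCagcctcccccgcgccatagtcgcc

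The box edges farthest from the gene lie 204, 62, 215, 116 and 197 bases upstream of the starts of PSMC3, PSMC4, PSMD10, PSMD11 and PSMD2, in that order. They read along the gene in PSMC3, PSMC4 and PSMD11 and against it in PSMD10 and PSMD2. Of these 5 genes, 4 fell (PSMC3, PSMC4, PSMD11 and PSMD2), while PSMD10 did not pass. Of the 35 tested genes whose windows lacked the box, 23 fell. The median log2 fold change was -0.29 with the box and -0.20 without it, a description over few genes that was not tested.

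Other motifs were searched on both strands in the same windows. The ETS core CCGGAAG was in 15 of 51 proteasome windows (29.4%) and in 10.3% of all windows; 8 of the 14 tested genes that carry it fell, against 19 of 26 without it. The CCAAT box was in 39.2% of proteasome windows and 34.6% of all windows, and TTTNNCGC, an E2F core, in 13.7% and 6.89%. The palindrome of nuclear respiratory factor 1, GCGCA followed directly by TGCGC, was in 2 windows, or 3.92% against 1.24%. Both windows are of PSMA4, overlap each other and hold the same single site. TGACNNNGC, the antioxidant response core that NFE2L1 with a small Maf protein binds, was in 29.4% against 13.3%, and 8 of the 15 tested genes with it fell, as did 19 of 25 without it. Proteasome windows had a median GC content of 62%, against 58.7% over all windows; its part in the motif shares was not tested.

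The window of PSMD13 is printed whole because this gene had the largest change that passed the test. It held the ETS core, in capitals, and no ZNF143 and THAP11 box; the letters are those of the plus strand, along the gene.
PSMD13, chr11:236726-237025, plus strand: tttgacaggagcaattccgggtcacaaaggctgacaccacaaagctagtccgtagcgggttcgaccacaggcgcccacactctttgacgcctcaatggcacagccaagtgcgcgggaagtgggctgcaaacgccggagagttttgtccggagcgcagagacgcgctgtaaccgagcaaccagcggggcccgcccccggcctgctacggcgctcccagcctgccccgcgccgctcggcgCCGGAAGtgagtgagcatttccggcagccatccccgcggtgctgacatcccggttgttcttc

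**Figure D1:**
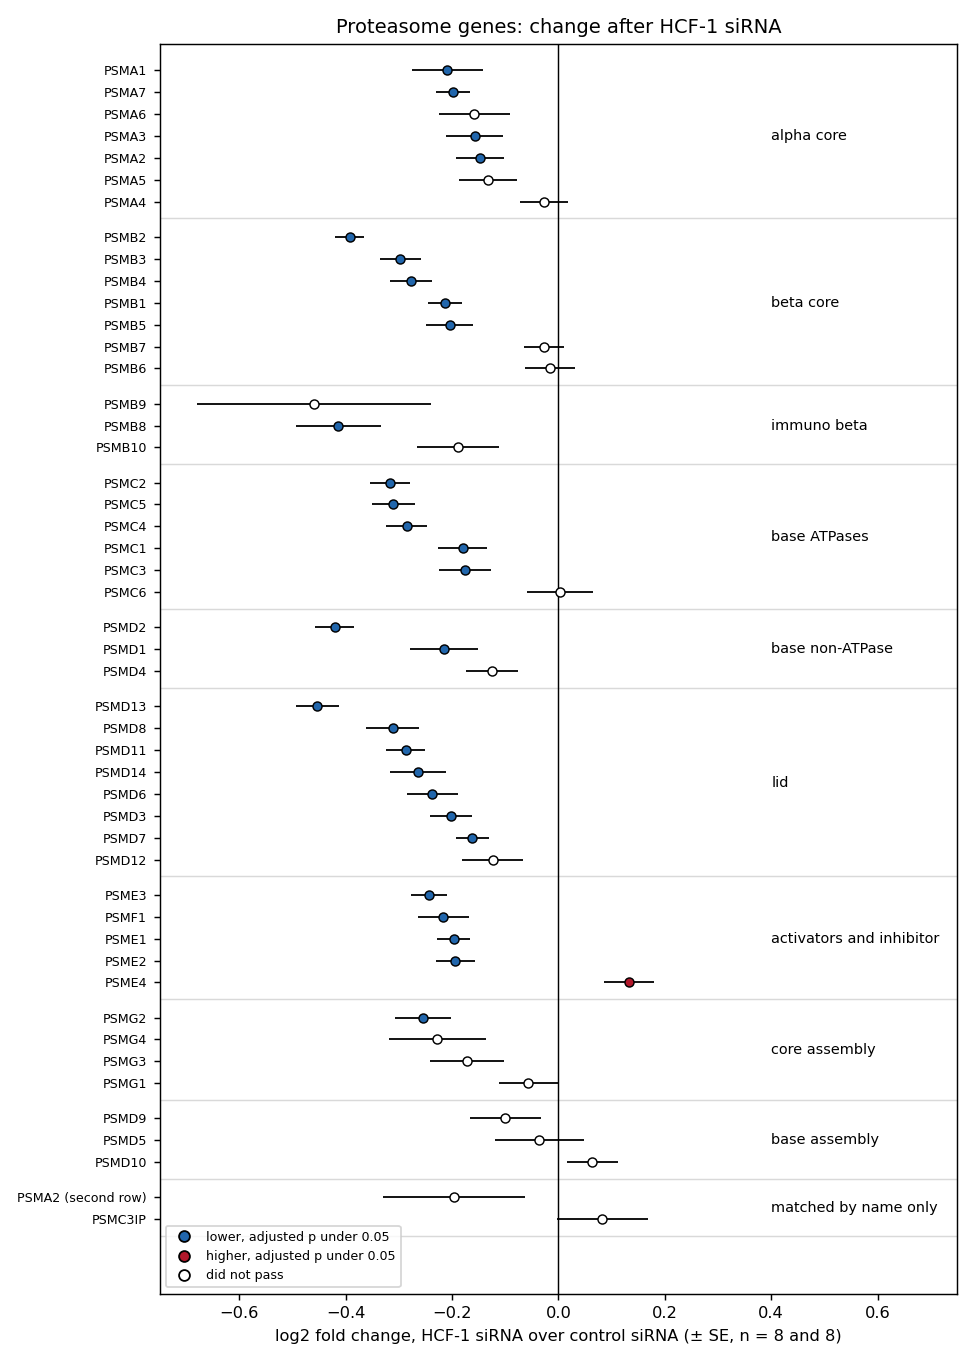
The plot gives the log2 fold change of each of the 48 rows tested, HCF-1 siRNA over control siRNA, as a point with its SE (8 libraries against 8), grouped by role. Blue points passed the test as lower (29), the red point as higher (PSME4) and white points did not pass (18); points lie between -0.46 for PSMB9 and 0.13 for PSME4.

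The 31 constitutive subunits of the 26S proteasome with a PSM name, core and regulatory particle together, were mostly lower. Of these, 23 fell (all genes 18.3%), none rose (all genes 18.2%), and 14 were lower with no overlap (all genes 5.23%). Their summed normalized counts were 118944, 123361 and 125921 in the lowest, median and highest HCF-1 siRNA library, against 141457, 143651 and 146138 in control libraries. The sums did not overlap, and the HCF-1 siRNA mean was 85.9% of the control mean. As a share of all normalized counts of a library, the same genes made up 0.431% ± 0.007 with HCF-1 siRNA and 0.512% ± 0.006 with control siRNA (SD, n = 8 each). Among PSM-named genes, 14 of 17 of the 19S particle fell (median log2 fold change -0.24), as did 9 of 14 of the 20S core (median -0.18). The difference between the particles was not tested. The 19S subunits ADRM1 and SHFM1 lack a PSM name and are counted below with proteasome-bound factors: ADRM1 fell, and SHFM1 did not pass. The 8 constitutive subunits that did not pass were PSMA4, PSMA5, PSMA6, PSMB6, PSMB7, PSMC6, PSMD4 and PSMD12, at 90.1% to 100.4% of the control mean.

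Among the alpha subunits, 4 of the 7 genes tested fell (all genes 18.3%), and the median log2 fold change was -0.16. PSMA1, a structural ring subunit, had 2215, 2609 and 2885 normalized counts in the lowest, median and highest HCF-1 siRNA library, against 2514, 3046 and 3314 in control libraries. The groups overlapped, and PSMA1 fell by 0.21 ± 0.07 on the log2 scale (adjusted p = 0.020). PSMA7 had 6012, 6427 and 6704 with HCF-1 siRNA, against 6875, 7391 and 7720 with control siRNA. It was the only alpha subunit whose groups did not overlap, and fell by 0.20 ± 0.03 on the log2 scale (adjusted p = 1.27e-04). PSMA3, another ring subunit, had 1699, 1855 and 2057 with HCF-1 siRNA, against 1868, 2073 and 2384 with control siRNA. The groups overlapped. PSMA3 passed with -0.16 ± 0.05 (adjusted p = 0.0261), but not without a filter on low genes (adjusted p = 0.0714), without HCF-1 siRNA replicate 3 (0.0503) or without control replicate 2 (0.0529). It was the only one of the 29 falls that did not pass in all 28 alternative settings. PSMA6, the most abundant alpha gene in counts, ranged from 7282 to 10043 with HCF-1 siRNA, against 8764 to 10502 with control siRNA, and did not pass (-0.16 ± 0.07, adjusted p = 0.0735). PSMA2 fell (90.1% of the control mean); PSMA5 at 91.5% and PSMA4 at 98.3% did not pass. PSMA6 passed without HCF-1 siRNA replicate 2 (adjusted p = 0.0395) or 4 (0.0310), and PSMA5 without HCF-1 siRNA replicate 5 (0.0381) or 8 (0.0376).

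Among the constitutive beta subunits 5 of 7 fell (all genes 18.3%), 4 of them with no overlap (all genes 5.23%), and the median log2 fold change was -0.21. PSMB2 (ENSG00000126067), a structural subunit, had 4072, 4202 and 4446 normalized counts in the lowest, median and highest HCF-1 siRNA library, against 5380, 5530 and 5791 in control libraries. The groups stood far apart relative to their spread, and PSMB2 fell to 76.2% of the control mean (log2 fold change -0.39 ± 0.03, adjusted p = 2.17e-08). PSMB3, also structural, had 3978, 4438 and 4600 with HCF-1 siRNA, against 4864, 5348 and 5734 with control siRNA, and fell by 0.30 ± 0.04 on the log2 scale (adjusted p = 1.25e-05). PSMB4, the last subunit to join the ring, had 3329, 3608 and 3856 with HCF-1 siRNA, against 4019, 4382 and 4756 with control siRNA, and fell by 0.28 ± 0.04 (adjusted p = 4.00e-05). Neither PSMB3 nor PSMB4 overlapped between the groups.

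Of the 3 catalytic beta genes, PSMB5 fell and the other two did not pass; the difference between them was not tested. PSMB5, the chymotrypsin-like subunit, had 10439, 11024 and 12568 normalized counts with HCF-1 siRNA, against 11982, 12876 and 14118 with control siRNA, and fell by 0.20 ± 0.04 on the log2 scale (adjusted p = 0.00143). Its groups overlapped through HCF-1 siRNA replicate 3, the highest of that group. PSMB6, the caspase-like subunit, was at 98.9% of the control mean (-0.02 ± 0.05) and PSMB7, the trypsin-like subunit, at 98.2% (-0.03 ± 0.04); neither passed, with adjusted p = 0.817 and 0.598. PSMB1, a structural subunit, fell to 86.2% of the control mean.

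**Figure D2:**
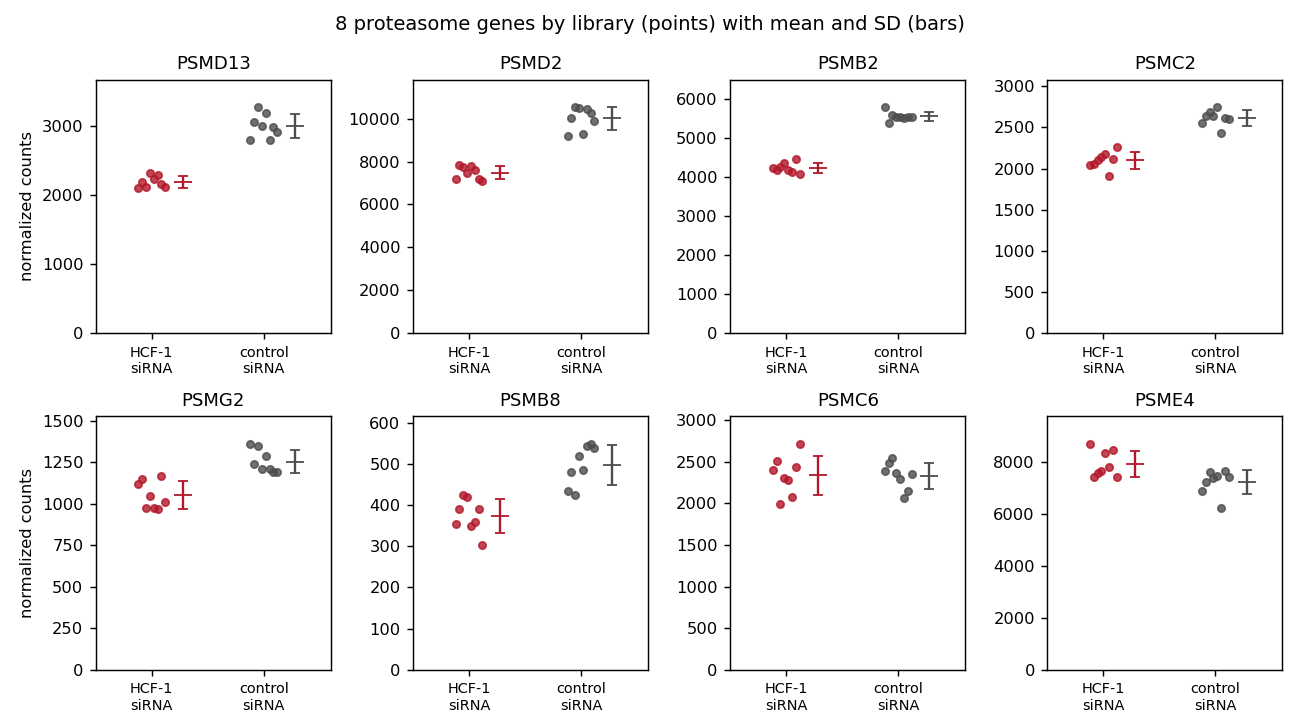
Each panel plots the normalized counts of 1 gene in every library, HCF-1 siRNA (red) left of control siRNA (grey), with the mean and SD as bars and the axis from 0. PSMD13, PSMD2, PSMB2, PSMC2, PSMG2 and PSMB8 have no overlap between the groups, whereas PSMC6 and PSME4 do.

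The immune beta genes had low counts and varied widely between libraries, with a median coefficient of variation of 10.9% with HCF-1 siRNA and 11.5% with control siRNA, against 4.92% and 5.10% for the constitutive beta genes. PSMB8 was the only one of the 3 that passed. PSMB8, which replaces PSMB5, had 302.1, 374.7 and 424.3 normalized counts in the lowest, median and highest HCF-1 siRNA library, against 425.4, 503.4 and 549.8 in control libraries. The groups just failed to touch, and PSMB8 fell to 75.1% of the control mean (log2 fold change -0.41 ± 0.08, adjusted p = 0.000595). PSMB10, which replaces PSMB7, had 374.9, 441.8 and 505.6 with HCF-1 siRNA, against 451.5, 486.1 and 620.4 with control siRNA, and did not pass (-0.19 ± 0.08, adjusted p = 0.0611); it passed with total-count scaling (0.0310), TMM scaling (0.0491) and edgeR (0.0489), and without HCF-1 siRNA replicate 1 (0.0368) or control replicate 1 (0.0483) or 3 (0.0447). PSMB9, which replaces PSMB6, had only 14.1, 25.7 and 35.0 with HCF-1 siRNA, against 20.4, 36.0 and 51.9 with control siRNA, and did not pass (-0.46 ± 0.22, adjusted p = 0.111). In both PSMB10 and PSMB9 the groups overlapped.

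Within each library the immune gene was also set against the constitutive gene of the same catalytic position, with two-sided exact permutation tests over 12870 splits and adjustment over the 3 pairs. PSMB8 was 2.87%, 3.36% and 3.78% of PSMB5 in the lowest, median and highest HCF-1 siRNA library, against 3.54%, 3.76% and 4.49% in control libraries. The ranges overlapped, and the log2 ratio was lower by 0.21 ± 0.06 (SE) with HCF-1 siRNA (log2 difference -0.21, exact p = 0.00249, adjusted 0.00746). PSMB9 was 0.417%, 0.657% and 0.926% of PSMB6 with HCF-1 siRNA, against 0.4995%, 0.987% and 1.45% with control siRNA (log2 difference -0.44 ± 0.22, exact permutation adjusted p = 0.0887). The log2 ratio PSMB9/PSMB6 passed without control replicate 6, at a difference of -0.57 and adjusted p = 0.0179. PSMB10 was 9.01%, 11.4% and 13.7% of PSMB7 with HCF-1 siRNA, against 11.01%, 12.8% and 15.6% with control siRNA, and did not pass (-0.16 ± 0.09, exact permutation adjusted p = 0.0887). These are ratios of counts not divided by length, so only their differences between groups can be read.

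**Figure D3:**
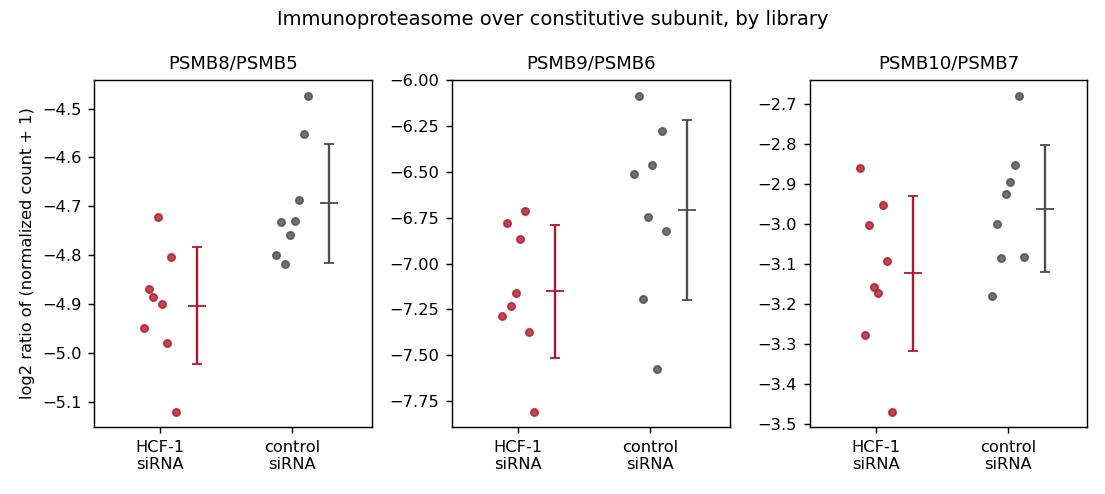
The log2 ratio of each immune beta gene to the constitutive gene it replaces is plotted for every library, HCF-1 siRNA left of control siRNA, with mean and SD as bars and a separate axis range per panel. For PSMB8/PSMB5 the HCF-1 siRNA libraries lie at -5.12 to -4.72 and the control libraries at -4.82 to -4.47, with some overlap.

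In the ATPase ring of the base, 5 of 6 genes fell (all genes 18.3%), and the median log2 fold change was -0.23. PSMC2 had 1912, 2109 and 2264 normalized counts in the lowest, median and highest HCF-1 siRNA library, against 2426, 2630 and 2749 in control libraries, and fell by 0.32 ± 0.04 on the log2 scale (adjusted p = 6.74e-06). PSMC5 had 3236, 3367 and 3798 with HCF-1 siRNA, against 3986, 4224 and 4574 with control siRNA, and fell by 0.31 ± 0.04 (adjusted p = 1.39e-05). PSMC4 had 2980, 3223 and 3415 with HCF-1 siRNA, against 3616, 3848 and 4172 with control siRNA, and fell by 0.29 ± 0.04 (adjusted p = 2.40e-05). All 3 separated the groups completely. PSMC3, the most abundant ATPase gene in counts, overlapped between the groups, with 3582, 3867 and 4421 with HCF-1 siRNA, against 3920, 4438 and 4834 with control siRNA, and fell by 0.18 ± 0.05 (adjusted p = 0.0103). PSMC1 fell to 88.2% of the control mean. PSMC6 was the exception, with 1995, 2352 and 2719 with HCF-1 siRNA, against 2059, 2357 and 2550 with control siRNA, medians almost equal, and did not pass (0.00 ± 0.06, adjusted p = 0.977).

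Of the 3 other PSM-named subunits of the base, PSMD2 and PSMD1 fell and PSMD4 did not pass, beside 18.3% of all genes that fell. PSMD2 (ENSG00000175166), a scaffold on which ubiquitin-like domains dock, had 7109, 7528 and 7845 normalized counts in the lowest, median and highest HCF-1 siRNA library, against 9192, 10162 and 10555 in control libraries. No library crossed over, and PSMD2 was at 74.7% of the control mean (log2 fold change -0.42 ± 0.04, adjusted p = 2.35e-07). PSMD1, the other large scaffold, had 4972, 6122 and 6642 with HCF-1 siRNA, against 6188, 6883 and 8006 with control siRNA, and fell by 0.22 ± 0.06 on the log2 scale (adjusted p = 0.0133), with overlap. PSMD4, a ubiquitin receptor, was at 91.5% (-0.13 ± 0.05, adjusted p = 0.0537) and passed in 10 of the 28 alternatives, DESeq2 (0.0395) and edgeR (0.0373) among them, and also without HCF-1 siRNA replicate 3 (0.0267) or control replicate 1 (0.0228) or 3 (0.0496).

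Of the 8 lid genes with a PSM name, 7 fell (all genes 18.3%), 5 with no overlap (all genes 5.23%), and the median log2 fold change was -0.25. SHFM1, a lid subunit without a PSM name, was at 91.2% of the control mean and did not pass (-0.14 ± 0.06, limma adjusted p = 0.0736). PSMD13 (ENSG00000185627), a structural lid subunit, had 2099, 2165 and 2318 normalized counts in the lowest, median and highest HCF-1 siRNA library, against 2786, 2989 and 3269 in control libraries. The groups were widely separated, and PSMD13 was at 73.0% of the control mean (log2 fold change -0.45 ± 0.04, adjusted p = 2.79e-07). PSMD8 had 2864, 3117 and 3437 with HCF-1 siRNA, against 3467, 3914 and 4266 with control siRNA, and fell by 0.31 ± 0.05 on the log2 scale (adjusted p = 9.50e-05). PSMD11 had 3274, 3633 and 3840 with HCF-1 siRNA, against 4068, 4429 and 4613 with control siRNA, and fell by 0.29 ± 0.04 (adjusted p = 1.05e-05). Both separated the groups, PSMD8 by a narrow margin.

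PSMD3, the most abundant lid gene in counts, had 4989, 5592 and 5822 with HCF-1 siRNA, against 5971, 6307 and 6917 with control siRNA, with no overlap, and fell by 0.20 ± 0.04 (adjusted p = 7.84e-04). PSMD14, the deubiquitinase that cuts ubiquitin chains off the substrate, fell to 83.2% of the control mean (-0.26 ± 0.05), PSMD6 to 84.7% and PSMD7 to 89.4%. In PSMD14 and PSMD6 the groups overlapped through control replicate 6, the lowest of that group. PSMD12 was at 91.7% and did not pass (adjusted p = 0.0998).

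**Figure D4:**
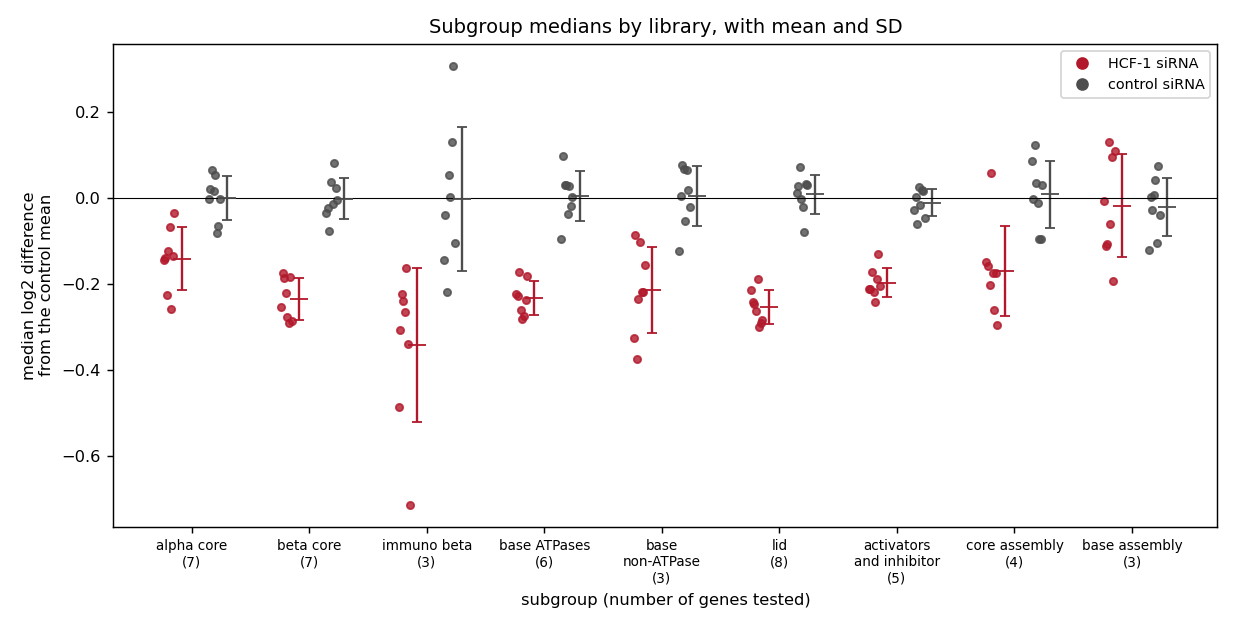
For each subgroup and library a point gives the median, over the subgroup's tested genes, of the log2 difference from the control mean, HCF-1 siRNA (red) left of control siRNA (grey), with mean and SD of the libraries as bars. HCF-1 siRNA libraries lie at -0.30 to -0.19 for the lid and -0.29 to -0.18 for the beta core, while the immune beta and assembly genes spread widely.

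The lower values were found in every HCF-1 siRNA library. Over all 48 rows tested, the median log2 difference from the control mean lay between -0.26 and -0.17 in the HCF-1 siRNA libraries, against -0.03 to 0.04 in control libraries. For the lid it was -0.30 to -0.19 with HCF-1 siRNA, against -0.08 to 0.07 with control siRNA, and for the ATPases -0.28 to -0.17 against -0.09 to 0.10. The alpha ring overlapped, -0.26 to -0.03 with HCF-1 siRNA against -0.08 to 0.07 with control siRNA. These medians are descriptions of the genes chosen and carry no test.

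All 5 activator and inhibitor genes passed the test, 4 lower and 1 higher, beside 18.3% and 18.2% of all genes. PSME3, the nuclear PA28 gamma activator, had 5583, 5930 and 6411 normalized counts in the lowest, median and highest HCF-1 siRNA library, against 6754, 6948 and 7465 in control libraries, with no overlap, and fell by 0.24 ± 0.03 on the log2 scale (adjusted p = 2.80e-05). PSMF1, an inhibitor of the core, had 5978, 6418 and 7321 with HCF-1 siRNA, against 7126, 7526 and 8470 with control siRNA, with overlap, and fell by 0.22 ± 0.05 (adjusted p = 0.00168). PSME1, the PA28 alpha subunit, had 6309, 6609 and 7310 with HCF-1 siRNA, against 7334, 7724 and 7926 with control siRNA. Its groups just failed to overlap, and it fell by 0.20 ± 0.03 (adjusted p = 1.04e-04).

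PSME4, which encodes the PA200 activator, ran the other way. It had 7443, 7725 and 8718 normalized counts in the lowest, median and highest HCF-1 siRNA library, against 6240, 7404 and 7665 in control libraries. The groups overlapped, and the rise of 0.13 ± 0.05 on the log2 scale (adjusted p = 0.0331) was the smallest change among the 30 calls. It did not pass in 7 of the 28 alternatives: without a filter on low genes (0.0643), with total-count scaling (0.0982), and without HCF-1 siRNA replicate 1 (0.0694), 5 (0.0629) or 7 (0.0649) or control replicate 1 (0.0604) or 6 (0.0587), all limma adjusted p.

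PSME2, the PA28 beta subunit, fell to 87.4% of the control mean (-0.19 ± 0.04, adjusted p = 5.08e-04). Its reads may be divided with a pseudogene, PSME2P2, which had 0 to 329.4 normalized counts with HCF-1 siRNA and 0.930 to 469.5 with control siRNA and stood under 2 in 2 libraries of each group. Added together, PSME2 and PSME2P2 were at 86.0% of the control mean. Likewise PSMC1 with its pseudogene PSMC1P5 was at 88.2%, and both PSMA2 rows together at 90.0%, close to the values of the genes alone.

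Of the 7 assembly factors with a PSM name 1 fell, a share near the 18.3% of all genes. In the core group the count was 1 to 3 with 1 library left out. Assembly factors without a PSM name, such as POMP, are counted below with proteasome-bound factors. Among the 4 chaperones of the core, PSMG2 fell, with 968.7, 1028 and 1167 normalized counts in the lowest, median and highest HCF-1 siRNA library, against 1187, 1223 and 1361 in control libraries. Its groups did not overlap (log2 fold change -0.25 ± 0.05, adjusted p = 0.00119). PSMG1, the partner of PSMG2 and the most abundant of the 4 in counts, had 1216, 1377 and 1459 with HCF-1 siRNA, against 1268, 1446 and 1548 with control siRNA, with overlap, and did not pass (-0.06 ± 0.06, adjusted p = 0.456). PSMG3 (88.8% of the control mean) and PSMG4 (85.6%) did not pass, both with an adjusted p of 0.0593. With total-count scaling both passed. PSMG3 also passed without HCF-1 siRNA replicate 3 (0.0497) or 4 (0.0217) or control replicate 3 (0.0375) or 5 (0.0337), and PSMG4 without HCF-1 siRNA replicate 4 (0.0165) or 5 (0.0492) or control replicate 7 (0.0271).

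None of the 3 base chaperones with a PSM name passed. PSMD5, with the highest mean of the 3 over all 16 libraries, had 746.2, 860.5 and 1057 normalized counts with HCF-1 siRNA, against 750.8, 881.2 and 1075 with control siRNA, almost the same range (-0.04 ± 0.08, adjusted p = 0.765). PSMD9 was at 93.2% of the control mean and PSMD10, also known as gankyrin, at 104.5%. Whether assembly factors and structural subunits differ in their response was not tested. The rows matched by name only did not pass either: PSMC3IP was at 106.5% and the second PSMA2 row at 88.1%.

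Subunits of the 26S particle are present in fixed numbers, but their transcript levels per length were not alike. Dividing by the exon length of GENCODE v29 (all annotated exons, so isoform use is ignored), 30 of the 31 constitutive genes had a level; the identifier of PSMB3 had no match. Control means ran from 400.2 normalized counts per kb for PSMD12 to 8792 for PSMB5, with a median of 2089. The 7 highest genes all belonged to the core: PSMB5, PSMA6, PSMB1, PSMA7, PSMB4, PSMB6 and PSMB7. Ordered by level, 23 of the 29 neighbouring pairs had overlapping control libraries, while PSMB5 stood above PSMA6, PSMB1 above PSMA7, PSMB7 above PSMD3, PSMD11 above PSMC2, PSMA5 above PSMC1 and PSMA4 above PSMD12 without overlap. At like control levels, PSMD2 and PSMC3 fell and PSMD4 did not pass, and the differences between these genes were not tested. PSMD2 had 2107 per kb with HCF-1 siRNA and 2821 with control siRNA. PSMC3 had 2473 with HCF-1 siRNA and 2797 with control siRNA, and PSMD4 had 2557 with HCF-1 siRNA and 2793 with control siRNA.

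**Figure D5:**
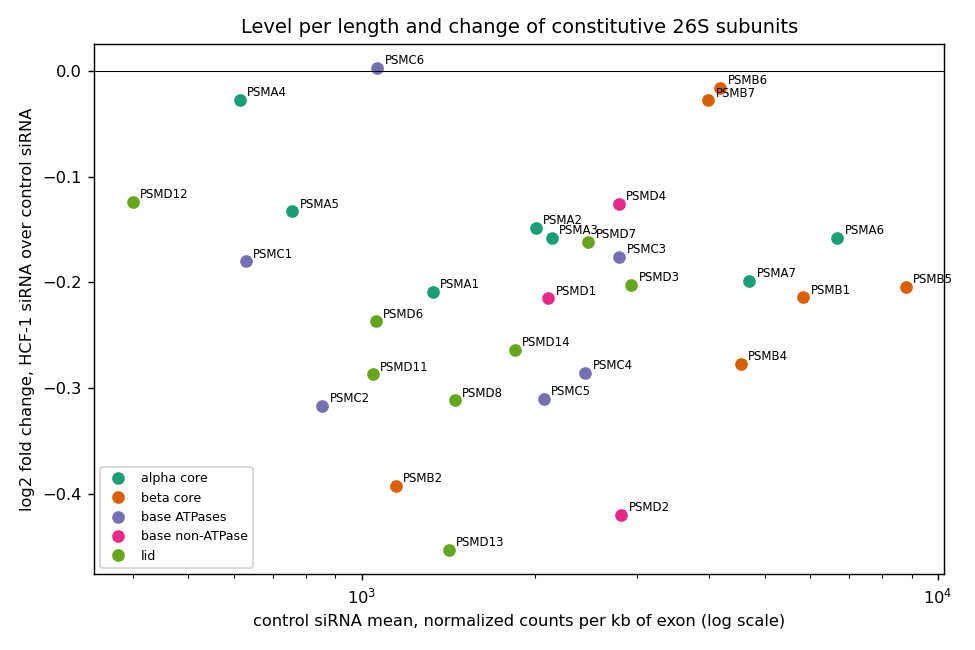
The log2 fold change of 30 constitutive 26S genes (vertical axis) is plotted against the control mean per kb of exon (horizontal axis, log scale), coloured by subunit class. Genes near 0 on the vertical axis, such as PSMC6, PSMA4, PSMB6 and PSMB7, occur at both low and high levels, and PSMD13 and PSMD2 lie lowest.

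Genes that work with the proteasome but carry no PSM name were counted in the same fit. Of 16 genes for proteasome-bound factors, 2 fell (12.5%) and 1 rose (6.25%), beside 18.3% and 18.2% of all genes; the difference was not tested, and 5 passed in DESeq2. POMP, which guides the maturation of the core, had 1077, 1245 and 1363 normalized counts with HCF-1 siRNA, against 1385, 1477 and 1750 with control siRNA, with no overlap (log2 fold change -0.30 ± 0.06, adjusted p = 0.00112). ADRM1, a ubiquitin receptor of the base, had 3547, 3712 and 4286 with HCF-1 siRNA, against 4313, 4581 and 5128 with control siRNA, also with no overlap (-0.28 ± 0.05, adjusted p = 3.97e-04). UBE3C, a ubiquitin ligase that binds the proteasome, had 2823, 3349 and 3885 with HCF-1 siRNA, against 2232, 2787 and 3318 with control siRNA, with overlap (0.24 ± 0.08, adjusted p = 0.0291). UBE3C lost its call with total-count scaling (0.0531) and without HCF-1 siRNA replicate 2 (0.0609) or 7 (0.0575) or control replicate 4 (0.0543), 5 (0.0577) or 6 (0.0562).

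The 8 regulators of proteasome genes included 2 that rose (25%) and 1 that fell (12.5%), shares near the 18.2% and 18.3% of all genes. MAFG, a small Maf partner of NFE2L1, had 1239, 1495 and 1559 normalized counts with HCF-1 siRNA, against 953.4, 1079 and 1295 with control siRNA, with some overlap, and rose by 0.40 ± 0.07 on the log2 scale (adjusted p = 1.83e-04). NFE2L1, known to switch on proteasome genes when the proteasome is inhibited, had 9282, 9544 and 10106 with HCF-1 siRNA, against 8397, 8922 and 9844 with control siRNA, with overlap, and rose by 0.10 ± 0.03 (adjusted p = 0.0223, but 0.0658 without a filter and 0.0804 with total-count scaling). NFE2L3, a related factor, had 1621, 2092 and 2367 with HCF-1 siRNA, against 2102, 2350 and 2498 with control siRNA, with overlap, and passed narrowly (-0.18 ± 0.07, adjusted p = 0.0493). It did not pass without a filter (0.0929) or with thinning (0.0691), nor without any single library among HCF-1 siRNA replicates 3, 4, 6 and 7 and control replicates 2, 4, 5, 6, 7 and 8 (0.0633 to 0.0918).

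Of 12 genes for ubiquitin supply and the VCP unfoldase, 7 fell (58.3%) and 3 rose (25%), beside 18.3% and 18.2% of all genes. UBA6, a ubiquitin-activating enzyme, had 931.1, 1108 and 1310 normalized counts with HCF-1 siRNA, against 737.4, 820.0 and 1062 with control siRNA, with overlap (log2 fold change 0.39 ± 0.08, adjusted p = 0.00116). NSFL1C, a VCP cofactor, had 3083, 3324 and 3699 with HCF-1 siRNA, against 3966, 4237 and 4477 with control siRNA, with no overlap (-0.35 ± 0.04, adjusted p = 3.93e-06). NPLOC4, another VCP cofactor, had 4491, 5265 and 5859 with HCF-1 siRNA, against 5368, 6073 and 7434 with control siRNA, with overlap (-0.24 ± 0.06, adjusted p = 0.00547).

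The COP9 signalosome resembles the lid in its architecture. Of its 9 genes only COPS8 passed (11.1%, beside 18.3% of all genes), with 2063, 2192 and 2293 normalized counts with HCF-1 siRNA, against 2461, 2586 and 2688 with control siRNA and no overlap (log2 fold change -0.25 ± 0.04, adjusted p = 4.19e-05). The median of the 9 was -0.08, and a difference from the lid was not tested.

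Of 16 antigen presentation genes, which act on or beside the peptides the proteasome makes, 7 fell (43.8%) and none rose, beside 18.3% and 18.2% of all genes. HLA-E, a class I molecule, had 1416, 1512 and 1788 normalized counts with HCF-1 siRNA, against 2069, 2223 and 2467 with control siRNA, with no overlap (log2 fold change -0.55 ± 0.06, adjusted p = 1.80e-06). TAP1, the peptide transporter subunit encoded beside PSMB9, had 809.5, 984.9 and 1018 with HCF-1 siRNA, against 1022, 1174 and 1226 with control siRNA, with no overlap by a narrow margin (-0.25 ± 0.06, adjusted p = 0.00207). TAPBPL, a peptide editor, had 47.3, 115.7 and 145.5 with HCF-1 siRNA, against 95.9, 156.3 and 217.2 with control siRNA, with overlap (-0.63 ± 0.22, adjusted p = 0.0336). TAPBPL lost its call in 9 of the 28 alternatives, among them that without a filter (0.0523). In 7 of them 1 library was left out, HCF-1 siRNA replicate 1, 4 or 8 or control replicate 2, 4, 6 or 8, at an adjusted p of 0.0576 to 0.0684.

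No source used here says whether the counting used strand. In GENCODE v29 exons of the opposite strand overlap those of PSMD13 (SIRT3), PSMB8 (PSMB8-AS1), PSMC5 (FTSJ3), PSMC1 (NRDE2), PSME1 (EMC9), PSME2 (RNF31), PSME4 (ACYP2), PSMG2 (CEP76) and PSMG3 (PSMG3-AS1), among others, so reads of these partners cannot be told apart from theirs. Exons of the same strand overlap those of PSMA1 (AC018523.2), PSMA2 (AC010132.3), PSMA6 (AL121594.1), PSMB9 (PSMB8-AS1), PSMB10 (AC040162.1), PSMD9 (WDR66) and PSME2 (MIR7703), among others. A strand setting would not separate these, and their part in the counts was not tested. The table also held 32 rows that are not protein-coding with names of this family, 29 of them pseudogenes. Of the 32, 4 had a mean of 10 or more: PSME2P2, PSMC1P5, PSMG3-AS1 and PSMD5-AS1. The antisense row PSMD5-AS1 had 154.3, 218.9 and 246.2 normalized counts with HCF-1 siRNA, against 139.5, 161.7 and 196.6 with control siRNA.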

How the data were processed

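Libraries were made with a stranded mRNA kit, per the labels' protocols. Per the submitters' processing notes the build was hg19 and the tools were DESeq2 1.16.1, featureCounts 1.4.4, STAR 2.4.1d and cutadapt 1.4.2; no source used here gives the annotation release or strand setting. The authors deposited a signal per gene and library: normalized counts. All values were whole multiples of 1 step per library (100%, within 0.001 read), so whole reads could be recovered. The column of HCF-1 siRNA replicate 1 lacks a digit in its name and was matched to that library, since no other title fits it. No pair of libraries in a group agreed within sampling noise (chi-square per degree of freedom 12.0 to 37.5 over 56 pairs).

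The 8 HCF-1 siRNA libraries were set against the 8 control libraries with limma 3.58.1 in R 4.3.3 (trend and robust) on log2(value + 1) for the 16081 genes whose mean reached 10. A gene was called at an adjusted p under 0.05 (Benjamini-Hochberg). The step was also run on simulated counts with known changes, and its outcome for changes as small as those here is not reported here. Alternatives were pseudocounts 0.5 and 10, no filter, a filter at 50, upper-quartile, total-count and TMM scaling, array weights, edgeR 4.0.16 and DESeq2 1.42.0 on recovered reads, a replicate block, thinning, and each library left out. P-values measure the spread between these cultures. The members and lists were chosen with earlier results of these data known. Named genes were HCFC1, per subgroup up to 3 called genes of largest change, any gene called higher and that of highest mean, and per other list up to 3 called genes of largest change. Genes outside this rule are named to account for every member, for subunits without a PSM name or for the limits of a count. Some single-gene values of the other lists are not reported here.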

Additional observations from a re-analysis of the deposited data

Results flagged for a closer look

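In 5 of the 102 groups of 8 libraries examined, 1 library stood apart from the others of its group by more than Dixon's 95% critical value for its share of the range; chance gives about 1 in 20 groups. HCF-1 siRNA replicate 3 was the highest of its group for PSMB5, at 12568 normalized counts against 10439 to 11425 in the other libraries, and for PSMC3, at 4421 against 3582 to 3957. HCF-1 siRNA replicate 7 was the highest for PSME2, at 5421 against 4622 to 4974. Control replicate 6 was the lowest of its group for PSMD14, at 3032 against 3469 to 3792, and for PSMD6, at 1587 against 1880 to 2020. All 5 genes fell in the comparison of the groups and passed in all 28 alternatives, those without these libraries included.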

How the results depend on the processing

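The count of falls was 28 to 36 of 48 over the settings other than leaving out a library, with 32 in edgeR and 30 in DESeq2, and 28 to 32 with 1 library left out; 28 of the 29 genes fell in all 28 alternatives. Among values of single proteasome rows, HCFC1 and the called genes of the other lists, 1952 stayed on their side of the threshold, 55 lost it and 36 gained it. Genes of the other lists that did not pass were left out of these counts. They passed in at most 6 of 28 alternatives (AKIRIN2). Over all listed genes, no called value changed sign, while 10 genes that did not pass did in some alternative, PSMC6 in 11 and PSMB6 in 2 of 28. Total-count scaling gave a median over the proteasome rows of -0.23 (all genes -0.02). Rises were 0 without a filter and with total-count scaling, and 0 to 1 with 1 library left out. Immune beta falls were 2 with total-count scaling, TMM and edgeR, and 1 to 2 with 1 library left out. Core assembly falls were 3 with total-count scaling, 2 with TMM, edgeR, the replicate block and thinning, and 1 to 3 with 1 library left out. COP9 calls were 1 to 2 with 1 library left out. Calls among proteasome-bound factors were 5 with total-count scaling, array weights, DESeq2 and thinning, and 2 to 5 with 1 library left out; 1 regulator was called without a filter. The PSMB9/PSMB6 difference was -0.57 to -0.35 with 1 library left out, the first without control replicate 6. The cause of these shifts was not tested. Same-numbered libraries of the 2 groups did not pair (correlations of deviations -0.07 to 0.10, 1 of 8 best with its own number); with the replicate block 30 rows fell and 1 rose, PSMG4 passed (adjusted p = 0.0483), and TAPBPL (0.0654) and NFE2L3 (0.0740) did not. PSMB9, at a mean of 25.2 normalized counts with HCF-1 siRNA and 35.5 with control siRNA, had few reads, and the precision this depth allows was not separated from the spread between cultures.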
